A study of Mus musculus with 6 samples.

Results

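Mitochondrial complex I was described here by the genes whose platform symbol starts with Ndufa, Ndufb, Ndufc, Ndufs, Ndufv or Ndufaf followed by a digit, on every probe set (the group of probes that reports 1 transcript) that names a single gene. The rule took 83 of 34945 single-symbol probe sets and 43 of 18193 genes. Of these, 35 genes with 73 probe sets were subunit genes and 8 genes with 10 probe sets were Ndufaf assembly factors, which help to build the enzyme and are not part of it. None of the 43 genes lies in the trisomic segment. The only member on chromosome 16, Ndufb4, lies outside it.

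Neurospheres are floating colonies of neural stem and progenitor cells. They were grown for 7 days with EGF and FGF2 from the walls of the lateral ventricles of female mice aged 84 days. One group of 3 arrays came from Ts1Cje mice, which model Down syndrome and were kept on a C57BL/6 background, and the other 3 arrays came from their disomic C57BL/6 littermates, which carry no extra segment. Ts1Cje mice carry 3 copies of the distal part of chromosome 16, the added copy joined to the end of chromosome 12, and the line arose while Sod1 was being targeted, so the Sod1 of the added segment does not work. Each array is labelled as a biological replicate. The methods describe 3 littermate pairs and mention no pooling of mice.

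Complex I, or NADH:ubiquinone oxidoreductase, is the entry point of electrons from NADH into the respiratory chain. Its arm in the mitochondrial matrix takes electrons from NADH and hands them along a chain of iron-sulphur clusters to ubiquinone, and its arm in the inner membrane pumps protons. The core subunits carry out these steps and are shared with bacteria, while accessory subunits surround and stabilise the core. Neural stem cells are known for relying largely on glycolysis, and respiration gains in weight as they become neurons.

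All values are log2 intensities made with gcRMA. M is the difference in mean log2 value, Ts1Cje less disomic, with 3 arrays on each side. A is the mean over the 6 arrays, and only probe sets whose A exceeded 5 were called expressed. A gene is given by its brightest single-symbol probe set, and levels of different probe sets are not compared as amounts of RNA. Of the 83 probe sets, 70 were expressed, and they covered 32 subunit genes (61 probe sets) and all 8 assembly factor genes (9 probe sets). The nearest probe set below that level was 1448003_at of Ndufaf8, with A of 4.30, and the nearest above it was 1418117_at of Ndufs4, with A of 5.77. The 13 probe sets that were not expressed had M between -0.23 and 0.10. Ndufa4l2, Ndufb1 and Ndufb4 had no expressed probe set and read 2.23 or 2.24 on every array, next to 2.23, the lowest value in the data. Each of these genes has only 1 single-symbol probe set, so the reading speaks of that probe set and does not show that the gene is silent. For Ndufb4, 2 probe sets that it shares with Ndufb4b and Ndufb4c, outside the rule, were bright, with A of 12.09 (M 0.11) and 10.72 (M 0.06).

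Promoter sequence is shown for 4 members that differ in how they read across the arrays or in the motif they hold: Ndufs8, the core subunit with the largest M; Ndufv1, the core subunit with M below 0; Ndufs3, with an ETS letter match; and Ndufs5, with an NRF1 letter match. Each run is the 250 bases before the RefSeq gene start, 5′ to 3′ on the gene's strand (the minus strand for all 4), on GRCm38.p6. The windows lie at chr19:3912775-3913024 for Ndufs8, chr19:4012756-4013005 for Ndufv1, chr2:90904722-90904971 for Ndufs3 and chr4:123718187-123718436 for Ndufs5. Capitals mark a motif match.
Ndufs8: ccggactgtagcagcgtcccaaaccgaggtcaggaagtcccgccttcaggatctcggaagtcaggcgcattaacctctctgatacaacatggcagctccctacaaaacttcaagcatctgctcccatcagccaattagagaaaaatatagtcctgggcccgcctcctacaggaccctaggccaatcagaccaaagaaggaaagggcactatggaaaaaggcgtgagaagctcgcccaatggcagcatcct
Ndufv1: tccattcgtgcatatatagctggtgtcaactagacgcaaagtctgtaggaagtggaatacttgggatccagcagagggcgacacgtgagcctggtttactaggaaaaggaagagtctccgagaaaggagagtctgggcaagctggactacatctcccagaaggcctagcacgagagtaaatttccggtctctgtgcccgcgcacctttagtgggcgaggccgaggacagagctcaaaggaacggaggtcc
Ndufs3: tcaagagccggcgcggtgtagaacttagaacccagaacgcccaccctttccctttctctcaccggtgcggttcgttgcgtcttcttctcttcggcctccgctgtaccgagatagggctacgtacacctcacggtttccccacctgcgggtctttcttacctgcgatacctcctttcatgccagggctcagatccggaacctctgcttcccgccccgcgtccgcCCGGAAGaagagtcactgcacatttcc
Ndufs5: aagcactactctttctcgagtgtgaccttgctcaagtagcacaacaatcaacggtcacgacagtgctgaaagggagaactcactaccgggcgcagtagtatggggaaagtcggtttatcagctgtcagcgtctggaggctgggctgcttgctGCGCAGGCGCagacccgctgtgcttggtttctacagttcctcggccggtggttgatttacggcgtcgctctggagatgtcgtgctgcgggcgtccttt

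NRF1 and the ETS factor GABP are known regulators of nuclear genes for mitochondrial proteins. Both strands of each window were searched for the NRF1 motif, read as GCGCA and GCGC with 1 base of any kind between them, and for CCGGAAG, an ETS core of the kind GABP binds. No member gene held both motifs, so they overlapped in no window. The RefSeq table held 40 windows for 38 of the 43 genes. The NRF1 letters were in 6 of the 40 windows (15%), against 3.74% of all 32851 windows of the same length, and belonged to Ndufa5, Ndufa8, Ndufaf4, Ndufb4 and Ndufs5. The ETS letters were in 5 windows (12.5%), against 6.91% of all windows, and belonged to Ndufaf1, Ndufaf8, Ndufb6, Ndufb7 and Ndufs3. In the windows shown, the ETS match of Ndufs3 begins 27 bases before the start and the NRF1 match of Ndufs5 begins 98 bases before it. Neither match was found in 28 genes, among them Ndufs8 and Ndufv1. These are matches of letters, and binding was not measured.

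Whether complex I genes differ between Ts1Cje and disomic neurospheres was asked gene by gene, and none passed the tests. With the moderated t of limma, 0 of 61 expressed subunit probe sets had t above 4 and 0 had t below -4, the level used in the study, where 0.965% and 0.812% of all 16371 expressed probe sets passed. For the 9 expressed assembly factor probe sets both counts were also 0. In limma 0 members had an adjusted p under 0.05, against 0.00611% of expressed probe sets, and 0 had an unadjusted p under 0.05, against 6.18%, and the adjusted p of every expressed member was 1.0. The smallest unadjusted p in limma was 0.0834 among subunits, for Ndufa4, and 0.0748 among assembly factors, for Ndufaf3. The 95% interval of M held 0 for all 32 subunit genes and all 8 assembly factor genes. It lay wholly within a 1.5-fold difference either way, the size of a copy number change from 2 to 3, for 18 of the 32 subunit genes and 4 of the 8 assembly factor genes, and for 47.5% of all expressed genes. For the other members a difference of that size was not excluded by 3 arrays a genotype.

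The subunit genes lay mostly a little above 0. Their median M was 0.16, with quartiles of 0.06 and 0.20 and a range from -0.05 to 0.39, beside a median of 0.02 over all 8947 expressed genes. M was above 0 for 28 of the 32 subunit genes, or 87.5%, where 53.9% of all expressed genes had M above 0. Over the 61 subunit probe sets the median was 0.12, with 52 above 0 and 9 below, where 51.6% of all expressed probe sets were above 0. Among subunits and assembly factors together, 18 genes had over 1 expressed probe set, and for 12 of these M had the same sign on all of them. The 8 assembly factor genes had a median M of 0.03, with 5 above 0 and 3 below. The subunit median rested largely on 1 array: it was 0.04 without Ts1Cje replicate 3, with 22 of 32 genes above 0 (68.75%, beside 52.0% of all expressed genes), and 0.25 without Ts1Cje replicate 1. Since these are whole cultures, a different share of some cell type and a different amount of RNA per cell cannot be told apart.

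**Figure D1:**
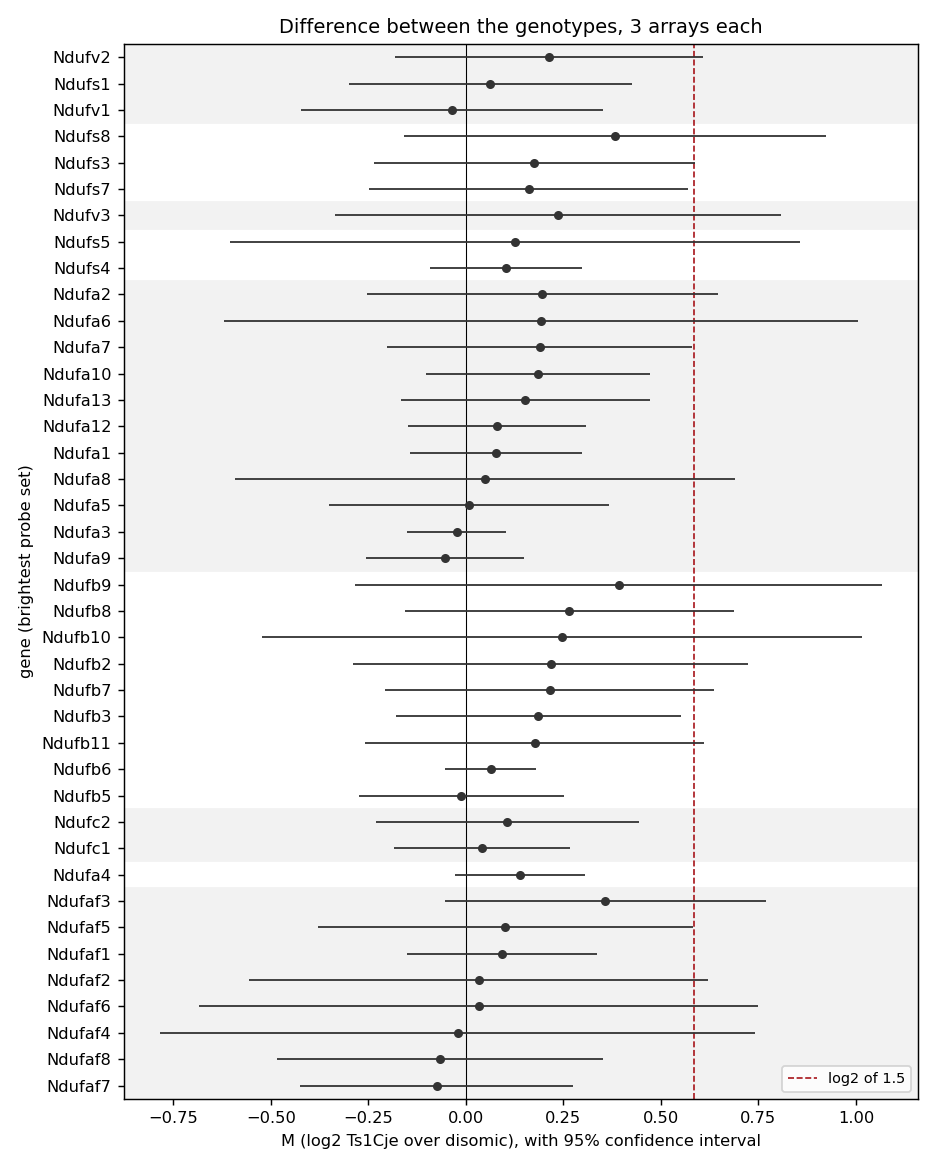
M (log2 Ts1Cje minus disomic) with its 95% interval from limma for each expressed complex I gene, by its brightest probe set, with shaded bands that part the roles and a dashed line at log2 of 1.5. Every interval crosses 0, and most subunit points lie between 0 and 0.4.

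The 3 core subunits of the NADH end had M of -0.04, 0.06 and 0.21. Ndufv1, which binds NADH and the flavin that takes its electrons, read 12.97, 12.66 and 12.77 on the disomic arrays and 12.53, 12.85 and 12.92 on the Ts1Cje arrays, with M of -0.04 (SE 0.14). Its lowest value came from Ts1Cje replicate 1 and its highest from disomic replicate 1, and the values of the genotypes overlapped. Its other expressed probe sets differed in sign, with M of 0.02 on 1456015_x_at and -0.03 on 1415967_at. Ndufv2, which carries an iron-sulphur cluster beside Ndufv1, read 11.79, 11.68 and 11.81 on the disomic arrays and 11.79, 11.86 and 12.26 on the Ts1Cje arrays (M 0.21, SE 0.15). Only Ts1Cje replicate 3 stood clearly above the disomic arrays. Ndufs1, the large subunit that passes electrons on through several clusters, read 11.73, 11.52 and 11.50 and then 11.87, 11.48 and 11.58 (M 0.06, SE 0.13). Its highest and its lowest values were both Ts1Cje arrays.

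The 3 quinone end subunits all had M above 0, and each was highest on Ts1Cje replicate 3 and lowest on disomic replicate 2. Ndufs8, which holds iron-sulphur clusters on the way to ubiquinone, read 11.30, 11.04 and 11.61 on the disomic arrays and 11.64, 11.51 and 11.95 on the Ts1Cje arrays. Its M of 0.38 (SE 0.20, a fold of 1.30, interval -0.16 to 0.92) was the largest of the core, and Ts1Cje replicate 2 lay below the highest disomic array. The 5 expressed probe sets of Ndufs8 gave M from 0.28 to 0.49, and on 1455283_x_at (M 0.46) the genotypes did not overlap. Ndufs7, which passes electrons to ubiquinone, read 11.78, 11.65 and 11.83 and then 11.73, 11.81 and 12.21 (M 0.16, SE 0.15). Ndufs3, a subunit of the matrix arm near the quinone site, read 11.56, 11.22 and 11.44 and then 11.40, 11.54 and 11.81 (M 0.18, SE 0.15). The rule gave 6 core subunits in all, with a median M of 0.17, which was 0.06 without Ts1Cje replicate 3 and 0.26 without Ts1Cje replicate 1.

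Among accessory subunits of the membrane arm, the B series (9 expressed genes) had a median M of 0.22, with 8 above 0. Without Ts1Cje replicate 3 that median was 0.05. Ndufb9, a subunit at the far end of the membrane arm, had the largest M of all subunit genes by brightest probe set. It read 11.23, 10.86 and 11.34 on the disomic arrays and 11.26, 11.39 and 11.97 on the Ts1Cje arrays (M 0.39, SE 0.25, a fold of 1.31). Its first Ts1Cje array lay below the highest disomic array, and its range came mainly from disomic replicate 2 and Ts1Cje replicate 3. On 1452184_at, its other expressed probe set, M was 0.23. Ndufb8 read 11.62, 11.31 and 11.47 and then 11.52, 11.69 and 11.99 (M 0.27, SE 0.16). Ndufb10 read 10.02, 9.55 and 10.17 and then 9.96, 9.90 and 10.62 (M 0.25, SE 0.29), with only Ts1Cje replicate 3 above the disomic arrays. Ndufb6, the brightest subunit probe set (A 13.70), differed by 0.06 (SE 0.04), and Ndufb5 by -0.01 (SE 0.10).

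The A series (11 expressed genes) had a median M of 0.08, with 9 above 0. It was 0.01 without Ts1Cje replicate 3, with 6 above 0, and 0.23 without Ts1Cje replicate 1. Ndufa9, which lies by the quinone site and binds a nucleotide cofactor, had the lowest M, -0.05 (SE 0.08), and read 12.99, 12.83 and 12.76 on the disomic arrays and 12.88, 12.79 and 12.74 on the Ts1Cje arrays. It was the only expressed subunit gene lowest on Ts1Cje replicate 3. Ndufa3 (M -0.02, SE 0.05) and Ndufa5 (M 0.01, SE 0.13) were also near 0. Ndufa6, the dimmest subunit gene by A (9.16), read 8.98, 8.86 and 9.36 and then 8.91, 9.06 and 9.80 (M 0.19, SE 0.30).

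Of the remaining accessory subunits, Ndufv3, whose human counterpart lies on the chromosome that is in excess in Down syndrome and which is not trisomic in these mice, read 10.96, 10.70 and 10.93 on the disomic arrays and 10.86, 10.93 and 11.51 on the Ts1Cje arrays (M 0.24, SE 0.21). Ts1Cje replicate 3 alone stood above the disomic arrays. Ndufs4, whose loss causes a Leigh-like brain disease in mice, differed by 0.10 (SE 0.07), and Ndufs5 by 0.12 (SE 0.27). The C series had M of 0.04 for Ndufc1 and 0.11 for Ndufc2.

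Ndufa4 keeps a complex I name but is now placed in complex IV, cytochrome c oxidase. It read 11.61, 11.57 and 11.50 on the disomic arrays and 11.67, 11.62 and 11.80 on the Ts1Cje arrays. Its genotypes did not overlap, with all Ts1Cje values higher by little (M 0.14, SE 0.06, a fold of 1.10, moderated t 2.24), with an interval of -0.03 to 0.30. With the Ndufs8 probe set above, it made 2 of 61 expressed subunit probe sets that lay higher in every Ts1Cje array, where 5.53% of all expressed probe sets did. None lay lower in every Ts1Cje array, where 5.21% of all expressed probe sets did. Without Ndufa4 the median M of the subunit genes was 0.16 (31 genes).

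The plot of deviations by array shows every expressed member side by side.

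**Figure D2:**
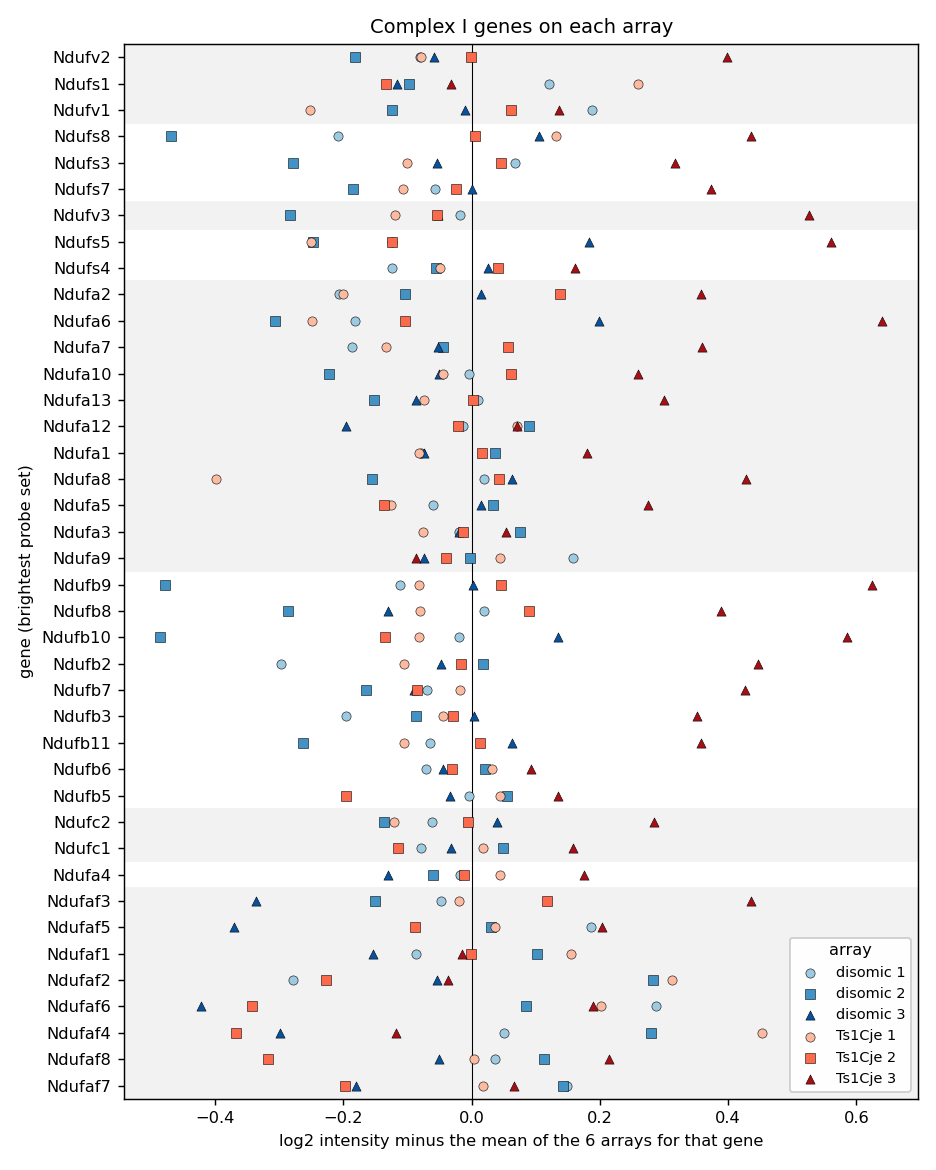
Log2 intensity minus the gene's mean over the 6 arrays, horizontal, for each of the 40 expressed complex I genes by its brightest probe set, with blue markers for disomic and red markers for Ts1Cje arrays, a marker shape for each replicate and shaded bands that part the roles. Ts1Cje replicate 3 (dark red triangles) is the rightmost point for 27 of the 32 subunit genes, and Ndufv1, Ndufs1, Ndufa3, Ndufa9 and Ndufa12 are the other 5.

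Assembly factors showed no common direction. Ndufaf3, which joins the early quinone module, read 7.12, 7.01 and 6.83 on the disomic arrays and 7.14, 7.28 and 7.60 on the Ts1Cje arrays. The genotypes did not overlap, though Ts1Cje replicate 1 was above the highest disomic array only in the second decimal, and M was 0.36 (SE 0.15, a fold of 1.28, interval -0.05 to 0.77). Ndufaf4, its partner in that step, read 9.67, 9.89 and 9.32 and then 10.07, 9.25 and 9.50 (M -0.02, SE 0.28), with Ts1Cje arrays at both ends. M was 0.09 for Ndufaf1, which helps to assemble the membrane arm, 0.03 for Ndufaf2, a relative of the subunit Ndufa12, and 0.10 for Ndufaf5, which modifies a quinone end subunit. It was -0.07 for Ndufaf8, the partner of Ndufaf5, -0.08 for Ndufaf7, a methyltransferase that acts on a core subunit, and 0.03 for Ndufaf6. Ndufaf3 was 1 of 9 expressed assembly factor probe sets higher in every Ts1Cje array, and none was lower, beside the 5.53% and 5.21% of all expressed probe sets. The median of the 8 genes changed sign with the array left out: it was -0.08 without disomic replicate 3 and -0.07 without Ts1Cje replicate 1, and 0.13 without disomic replicate 2 and 0.16 without Ts1Cje replicate 2.

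The arrays of a genotype differed among themselves, and the subunit genes did so together. Of the 32 subunit genes, 27 had their highest value on Ts1Cje replicate 3, where 23.0% of all expressed genes did (51 of 61 probe sets, beside 21.1% of all expressed probe sets), and 14 had their lowest on disomic replicate 2, where 17.9% did. All 9 expressed B series genes were highest on Ts1Cje replicate 3, as were 3 of 8 assembly factors. The median deviation of the subunit genes from their mean over the 6 arrays was -0.06, -0.13 and -0.03 on the disomic arrays and -0.08, -0.01 and 0.33 on the Ts1Cje arrays. The assembly factors gave 0.04, 0.11 and -0.24 and then 0.10, -0.21 and 0.13, so they were not spread in the same order. Against the disomic mean, the subunit genes had a median difference of 0.00 on Ts1Cje replicate 1, 0.06 on replicate 2 and 0.42 on replicate 3, and 30 of the 32 were above it on replicate 3. Ndufb9 (0.82), Ndufa6 (0.74), Ndufb10 (0.71) and Ndufv3 (0.64) stood highest there, while Ndufa9 (-0.11) lay below. With replicate 3 left out, the largest M among subunits were 0.26 for Ndufs8 and 0.18 for Ndufb9.

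**Figure D3:**
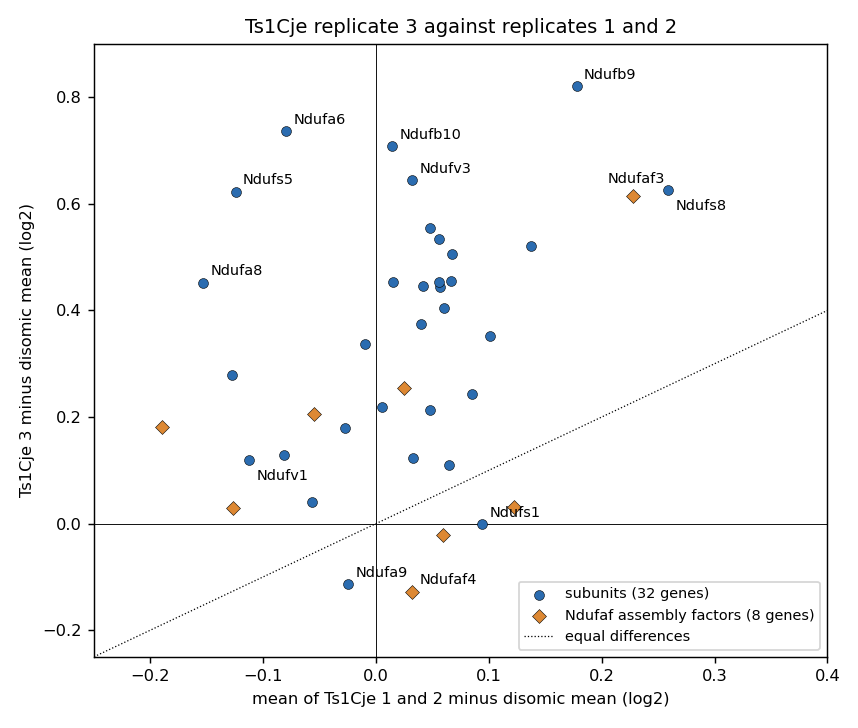
Difference from the disomic mean (log2) on Ts1Cje replicate 3, vertical, against the mean difference on Ts1Cje replicates 1 and 2, horizontal, for 32 subunit genes and 8 assembly factor genes. Nearly all subunit points lie above the dotted line of equal differences, and the assembly factors lie on both sides of it.

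Other lists of mitochondrial genes were read beside the subunits. In complexes II to V (41 of 47 measured genes expressed), 34 of 41 had M above 0, with a median of 0.15. Of these, 2 had t above 4 in limma, where 1.13% of all expressed genes did and 0.693% had t below -4: Uqcrb of complex III (M 0.19) and Atp5h of the ATP synthase (M 0.15), with an adjusted p of 1.0 in limma for both. Without Ts1Cje replicate 3 the median of the list was 0.02, with 29 of 41 above 0. In that list, 32 of 41 were highest on Ts1Cje replicate 3. In the mitochondrial ribosome (74 of 76 expressed), 54 of 74 had M above 0, with a median of 0.09, and 53 of 74 were highest on that array. The median was -0.01 without it, with 34 of 74 above 0. Of these genes 1 had t above 4 in limma, Mrps6 (M 0.88, SE 0.21), which is trisomic in these mice. The median deviation on Ts1Cje replicate 3 was 0.33 for complex I subunits, 0.26 for complexes II to V and 0.24 for the mitochondrial ribosome.

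Of the proteins that build complex I without an Ndufaf name, and the carrier protein Ndufab1, 12 of 13 measured were expressed, 6 with M above 0 and 6 below, with a median of 0.01 and 0 with t past 4 either way. Tmem126b and Ecsit, which assemble the membrane arm with Ndufaf1, had M of 0.02 and 0.08. Of the regulators of mitochondrial gene expression, 13 of 14 were expressed, 5 with M above 0 and 8 below (median -0.08), and again 0 had t past 4. Ppargc1a, a coactivator of mitochondrial genes, had M of 0.17 (SE 0.10), Nrf1 -0.08 (SE 0.05), Gabpa, the DNA-binding part of GABP, -0.20 (SE 0.20), Tfam, which packs mitochondrial DNA, -0.07 (SE 0.05), and Esrra, a receptor that acts with Ppargc1a, 0.25 (SE 0.22).

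**Figure D4:**
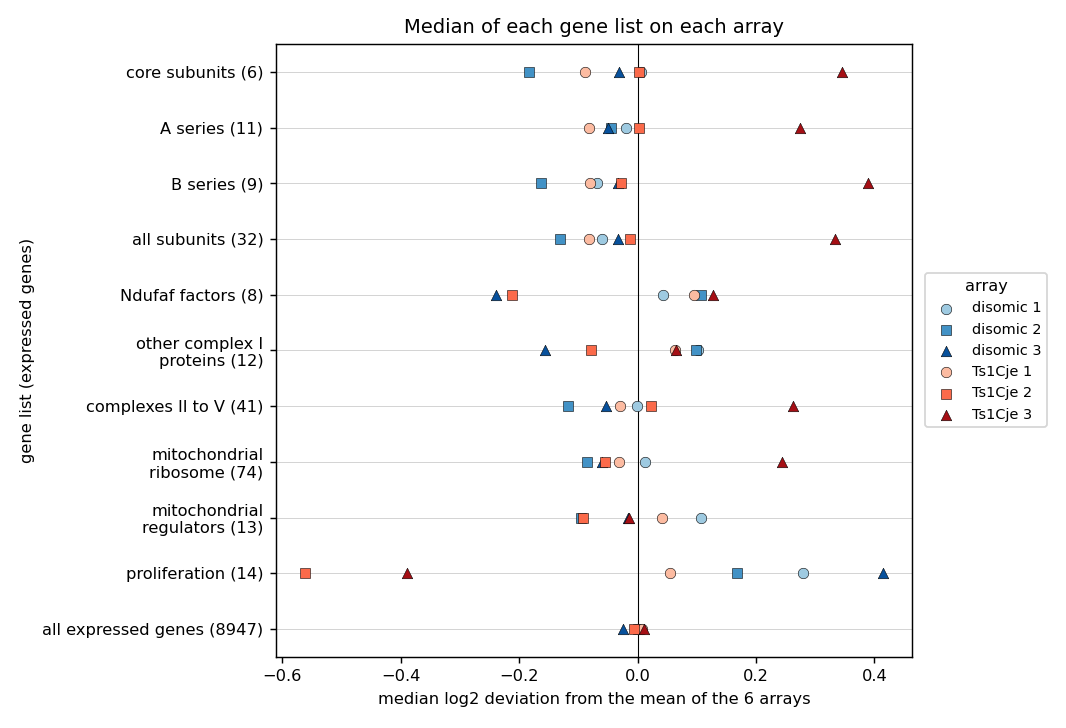
Median log2 deviation from the mean of the 6 arrays for each gene list (number of expressed genes in brackets), with a marker per array. Ts1Cje replicate 3 lies at 0.33 for the complex I subunits and at 0.26 for complexes II to V. The proliferation genes lie at 0.06, -0.56 and -0.39 on Ts1Cje replicates 1, 2 and 3, lowest on replicate 2.

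Values that moved beside these lists were as follows. The 7 neural stem and progenitor markers measured were all expressed, as the label of the cells has it, and had a median M of 0.01. Markers of neuroblasts and neurons (5), microglia (5), ependyma (3), endothelium (4) and erythroid cells (2) had none expressed and lay at or near the lowest values. Of 4 astrocyte markers, Aqp4 and Aldh1l1 were expressed, and the list's summed intensity was 6794 to 8131 in the disomic arrays and 7812 to 11053 in the Ts1Cje arrays, with its highest value on Ts1Cje replicate 3. Aqp4, the water channel of astrocytes, had M of 0.81 (SE 0.23) with no overlap between the genotypes and was highest on that array, while Aldh1l1 had M of 0.10 (SE 0.22). The other 2, Gfap (A 4.87) and S100b (A 2.97), were not expressed and had M of -0.09 (SE 1.35) and -0.08 (SE 0.09). Gfap ran from 2.37 on Ts1Cje replicate 1 to 6.36 on Ts1Cje replicate 3. Of the oligodendrocyte markers measured, Mbp and Mobp were expressed and Mog was at the lowest value, and the list summed to 745 to 2184 in disomic arrays and 637 to 1169 in Ts1Cje arrays. The 14 proliferation genes had a median M of -0.55. All 14 lay below 0, as did 4125 of all 8947 expressed genes. Of the 14, 1 (Mcm7) had t below -4, where 0.693% of all expressed genes did. The study had already reported Mcm7, Aurka and Ccna2 as lower on these same arrays, so their direction is no separate evidence. The intensities of the 14 genes summed to 28966 to 34276 in disomic arrays and 18508 to 26713 in Ts1Cje arrays. The 3′ minus 5′ signal of actin, a sign of RNA quality, was 1.53, 1.83 and 1.66 on the disomic arrays and 1.94, 1.87 and 2.26 on the Ts1Cje arrays, highest on replicate 3, the array on which the subunits were highest. That of Gapdh was 2.28, 2.09 and 2.16 and then 2.30, 2.44 and 2.29, and the mean signal of the 18S controls was 10.24, 11.32 and 11.74 and then 11.97, 12.36 and 12.33. All 3 measures were higher on every Ts1Cje array than on any disomic array, and the Gapdh and 18S values were highest on Ts1Cje replicate 2. The part of each of these in the result was not tested.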

How the data were processed

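RNA from 3 Ts1Cje and 3 disomic neurosphere cultures was labelled in a double-cycle protocol and hybridised to Affymetrix mouse genome arrays. The deposited log2 intensities were made by the authors with gcRMA, which corrects background by probe base composition, normalizes between arrays and summarises each probe set (its version is not given in the sources used here), so these steps could not be repeated. Array values ran from 2.23 to 15.89, and their number, not a read depth, limits precision. Groups came from the sample labels.

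Genotype was the sole term of the linear model, fitted to 45037 probe sets without the controls with limma 3.58.1 in R 4.3.3, and two-sided p-values of the moderated t were adjusted over all of them by Benjamini-Hochberg. The prior degrees of freedom were 0.336. The script was tested on simulated data. Tables and figures were made with Python 3.11.15, pandas 2.3.3 and matplotlib 3.10.9. Symbols came from the platform annotation (932 probe sets with several and 9160 with none were not members) and positions and promoters from RefSeq on GRCm38.p6.

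The members and gene lists were chosen with earlier results of these data known. The genes named were all core subunits and Ndufaf genes, members past a t of 4, the 5 highest and 5 lowest M among subunit genes, members whose probe sets differ by over 0.3, Ndufv3, Ndufa4, Ndufa4l2, genes not expressed, and the brightest and dimmest subunits. Other genes named were chosen after their values were seen. Alternatives were a replicate block, leaving out each array, cyclic loess, array weights, a prior variance trended on intensity, a fit on expressed probe sets only, A above 4 or 6, other ways to pick a probe set, and leaving out Ndufa4.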

Additional observations from a re-analysis of the deposited data

How the results depend on the processing

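No subunit or assembly factor count with t past 4 moved from 0 when any 1 array was left out. With the replicate block, 3 subunit probe sets had t above 4 in limma, of Ndufs8 (M 0.38), Ndufv2 and Ndufs4, at an adjusted p of 1.0, beside 3.05% of all expressed probe sets. No label says that arrays of the same number came from littermates, so the block was used only as an alternative. The correlations of deviations between same-numbered arrays were -0.17, -0.03 and 0.13, and only disomic replicate 3 correlated best with the array of its own number. With deviations taken from means of only 3 arrays, these correlations cannot decide whether the numbers pair the cultures. Leaving out each array gave a subunit median of 0.04 to 0.25, an assembly factor median of -0.08 to 0.16, 22 to 29 subunit genes with M above 0, 2 to 16 subunit probe sets higher and 0 to 2 lower without overlap. The count of 16 of 61 (26.2%) was without Ts1Cje replicate 1, where 12.1% of all expressed probe sets lay higher, 12 (19.7%) without disomic replicate 3, beside 12.9%, 8 (13.1%) without Ts1Cje replicate 2, beside 9.54%, and 6 (9.84%) without disomic replicate 1, beside 10.4%. It was 3 (4.92%) without disomic replicate 2, beside 9.76%, and 2 (3.28%) without Ts1Cje replicate 3, beside 9.2%. Without Ts1Cje replicate 3, 2 subunit probe sets lay lower, beside 7.97% of all expressed probe sets. Without disomic replicate 3, 1 lay lower, beside 12.1%. These shares, the assembly factor counts and the list medians without an array were chosen after seeing the data. With array weights the assembly factor median was -0.063, and M was -0.031 for Ndufa5, -0.069 for Ndufaf2, -0.057 for Ndufaf6 and 0.00149 for Ndufv1.

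Leaving out each array, M changed sign for 13 named genes, all with an M of at most 0.19 in size over 6 arrays: it ran from -0.057 to 0.0075 for Ndufa3, -0.13 to 0.079 for Ndufa5, -0.080 to 0.36 for Ndufa6, -0.10 to 0.011 for Ndufa9, -0.12 to 0.18 for Ndufaf2, -0.25 to 0.16 for Ndufaf4, -0.058 to 0.22 for Ndufaf5, -0.17 to 0.21 for Ndufaf6, -0.18 to 0.00449 for Ndufaf7, -0.19 to 0.076 for Ndufaf8, -0.082 to 0.083 for Ndufb5, -0.052 to 0.14 for Ndufs1 and -0.11 to 0.081 for Ndufv1. The cause of these changes was not tested. Of 325 alternative values of named genes, 298 kept their direction and their side of the threshold and 26 changed sign. With 3 arrays a genotype, differences smaller than the intervals given cannot be seen.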

Other observations

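A further 9 probe sets carry a complex I name together with another gene symbol and are therefore outside the members. Of these, 5 were expressed, with M from 0.06 to 0.20 and a moderated t from 0.40 to 1.10, and all 5 read highest on Ts1Cje replicate 3. The other 4 were not expressed.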
